A study of Mus musculus with 2 samples.

Results

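Genes of the actin machinery were followed in single cortical myeloid cells of an amyloid mouse model, 10 of the 31053 genes counted. They were chosen by symbol and comprise the monomer-binding proteins Tmsb4x, Tmsb10 and Pfn1, the cytoplasmic actins Actb and Actg1, the filament regulators Cfl1 and Coro1a, and the Arp2/3 complex subunits Arpc1b, Arpc2 and Arpc3. All 10 were found, each once, and each had at least 100 UMIs (unique molecular identifiers, 1 per captured transcript) in both libraries together. The study compared male 5xFAD hemizygous mice on a C57BL/6J background. The 5xFAD transgenes express human mutant amyloid precursor protein and presenilin in neurons under the Thy1 promoter, and both groups carried them, so no library came from a mouse without amyloid. In the photoconversion group 5 uL Visudyne, a photosensitiser, went into the cisterna magna at 4 months of age and 689-nm red light was applied through the skull in 5 steps, a procedure meant to ablate meningeal lymphatic vessels. The control group received 5 uL Visudyne without light. Both procedures were repeated after 3 weeks and the cortex was taken 3 weeks later, at a labelled age of 5.5 months. Viable CD45+ CD11b+ Ly6G- cells of 3 mice were pooled into 1 library per group.

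Actin exists as free monomers (G-actin) and as filaments (F-actin) that grow at 1 end and are taken apart at the other. Thymosins hold monomers in reserve, profilin feeds them to growing ends, the Arp2/3 complex starts new branches from the sides of filaments, and cofilin severs old filaments so that their monomers can be used again. Microglia use this turnover to extend the processes that survey the brain and to close the cup around a phagocytosed particle such as amyloid. Malat1, by which cells are grouped further on, is a long noncoding RNA kept in the nucleus.

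Regulatory sequence of 2 genes is shown, 1 with and 1 without the serum-response motif described next. Windows of 250 bases before the RefSeq start sites (GRCm38.p6) matched 9 of the 10 genes in 12 windows and were searched on both strands for the CArG box, the site of serum response factor, whose coactivators are held by free actin monomers, for the GC box GGGCGG, and for TATAAA. The CArG box was found in 1 of the 12 windows, that of Actg1, 90 bases before the start, against 1.47% of all 32851 windows. Actb was the gene without a window, so its promoter was not searched. The GC box was found in 9 of the 12 windows, of 7 genes, against 32.7% of all windows, and TATAAA in 0 of the 12, against 12.4%. No CArG box overlapped a GC box. The stretches below lie outside the transcribed gene model, on the minus strand of mm10, with the CArG box and the GC boxes (or their reverse complement) in capitals. The Actg1 stretch is chr11:120348543-120348745 and the Tmsb4x stretch chrX:167209316-167209468.
Actg1: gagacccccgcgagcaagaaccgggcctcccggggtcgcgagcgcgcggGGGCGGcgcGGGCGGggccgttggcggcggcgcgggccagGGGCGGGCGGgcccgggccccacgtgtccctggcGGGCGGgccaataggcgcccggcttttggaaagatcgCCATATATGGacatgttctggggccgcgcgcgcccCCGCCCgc
Tmsb4x: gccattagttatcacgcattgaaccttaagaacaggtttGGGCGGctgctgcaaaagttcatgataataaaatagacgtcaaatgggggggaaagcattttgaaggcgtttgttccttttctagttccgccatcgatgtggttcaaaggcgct
The Actg1 stretch held 6 GC boxes, of which 1 pair shares 2 bases, and the Tmsb4x stretch held 1. A match describes these letters and is not a measured binding site.

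Barcodes were kept when they showed 200 or more genes and no more than 10% mitochondrial UMIs. This left 317 of 2000 listed barcodes after photoconversion, with a median of 3410 UMIs and 1816177 UMIs in all, and 555 of 2000 in the control, with a median of 2670 UMIs and 2422711 in all. Of the listed barcodes 27 occurred in both libraries, but 0 of the kept cells. The labelled cell type matched its markers: all 11 microglial markers were detected, at a summed level of 50455 CPM (UMIs per 1000000 UMIs of the same cells) after photoconversion and 52161 CPM in the control, and 312 of 317 and 550 of 555 cells had at least 3 marker UMIs. Monocyte markers summed to 29 UMIs after photoconversion and 184 UMIs in the control, and border macrophage markers to 18 and 88. Sums were larger for astrocyte markers (288 UMIs after photoconversion and 395 in the control), endothelial and mural markers (383 and 642) and oligodendrocyte markers (199 and 336). At least 3 astrocyte marker UMIs were found in 7.89% of cells after photoconversion and 3.96% in the control, and 3 oligodendrocyte marker UMIs in 6.94% and 5.95%. Since each group is a single library, differences between the groups have no replicate check and were not tested. Intervals are exact 95% intervals that cover counting error only, and a change in cell make-up cannot be told apart from a change per cell in the summed values.

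Together the 10 genes made up 2.37% of all UMIs after photoconversion (43055 UMIs) and 2.54% in the control (61633 UMIs), a ratio of 0.932 (0.920 to 0.943). The summed level was thus slightly lower after photoconversion, while the median cell gave 2.26% of its UMIs to these genes after photoconversion and 2.18% in the control. The spread between cells was far wider than the difference between libraries, with 10th to 90th percentiles of 0.69 to 3.97% after photoconversion and 0.63 to 4.08% in the control. With every cell thinned to 1000 UMIs, which left out 45 photoconversion and 116 control cells, the medians were 2.20% after photoconversion and 2.30% in the control. The sums weigh deep cells most, and between 12.5% and 27.5% of a gene's UMIs came from the 10 richest cells of its library. Tmsb4x alone gave 27868 of the summed UMIs after photoconversion and 37486 in the control. Values of the 10 genes together, here and below, therefore mainly follow Tmsb4x.

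**Figure D1:**
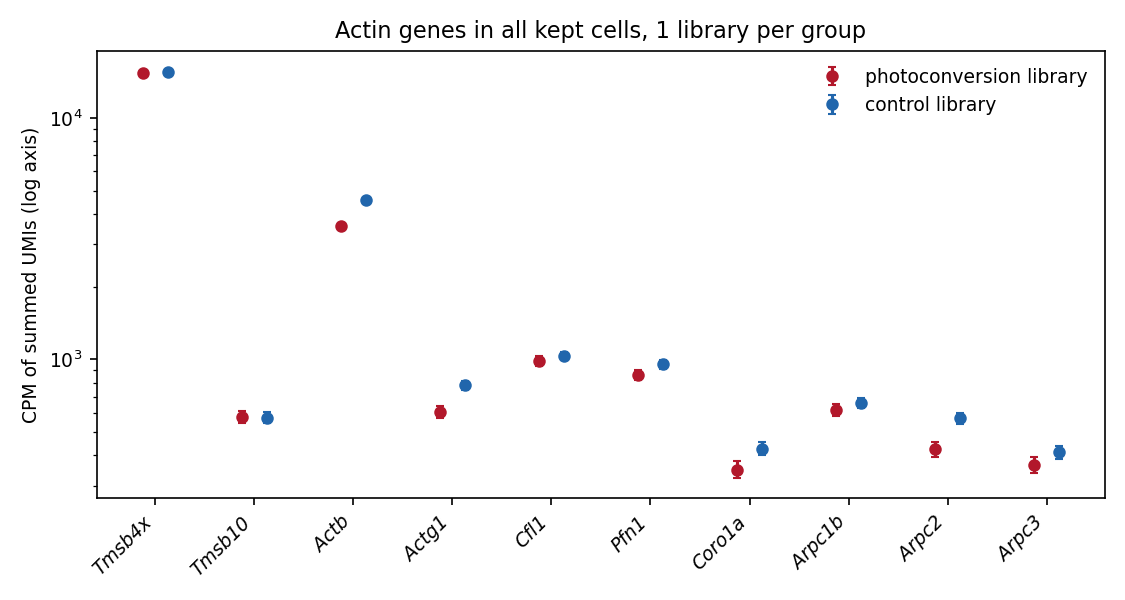
Summed level of each of the 10 actin genes in all kept cells, in CPM on a log axis, for the photoconversion library (red, 317 cells) and the control library (blue, 555 cells). Points are the values of 1 library and bars are exact 95% Poisson intervals, which cover counting error only. Actb, Actg1, Pfn1, Coro1a and Arpc2 lie lower after photoconversion without overlap of the intervals, and the intervals of both thymosins overlap.

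A gene is described as past the threshold where its lower level was at most 0.8 times the higher one. Of the 10 genes 3 were past it, all of them lower after photoconversion, against 23.8% of the 4009 genes with at least 100 UMIs, of which 16.5% were lower and 7.31% higher. Of the 10 genes 9 had a ratio below 1, with a median log2 ratio of -0.16, beside -0.06 over all genes tested. Over all genes 1581 of 4009 had a ratio above 1. The 3 genes were Actb, Actg1 and Arpc2, and in the 267 photoconversion and 487 control cells with microglial and no other markers their ratios were 0.818, 0.797 and 0.729. Under TMM scaling, which raises all log2 ratios by 0.06, 1 gene was past the threshold, Arpc2 at a ratio of 0.777, also the count under median-of-ratios scaling. With cells thinned to 1000 UMIs 4 genes were past it, Actg1 at 0.762, Coro1a at 0.731, Arpc2 at 0.607 and Arpc3 at 0.793. Actb was not, at 0.883. The share of all genes past the threshold is not given for these scalings and thinned cells, so these counts lack that comparison.

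The monomer-binding thymosins had nearly equal levels in the libraries. Tmsb4x, the main buffer of free actin monomers (ENSMUSG00000049775, chromosome X, 167207093 to 167209315, minus strand, mm10 as are all positions here), had 15344 CPM after photoconversion and 15473 CPM in the control, a ratio of 0.992 (0.976 to 1.01). Its paralog Tmsb10 (ENSMUSG00000079523, chromosome 6, 72957347 to 72958748, minus strand) had 577 CPM after photoconversion and 573 CPM in the control, a ratio of 1.01 (0.929 to 1.09). Both intervals include 1. The profilin gene Pfn1 (ENSMUSG00000018293, chromosome 11, 70651850 to 70654644, minus strand) had 863 CPM after photoconversion and 953 CPM in the control, a ratio of 0.905 (0.848 to 0.966). Profilin thus stood lower than the thymosins in its ratio, but not past the threshold.

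Both actin genes were lower after photoconversion. Actb, beta-actin (ENSMUSG00000029580, chromosome 5, 142903115 to 142906754, minus strand), had 3578 CPM after photoconversion and 4555 CPM in the control, a ratio of 0.786 (0.762 to 0.810). Actg1, gamma-actin (ENSMUSG00000062825, chromosome 11, 120345690 to 120348542, minus strand), had 606 CPM after photoconversion and 781 CPM in the control, a ratio of 0.776 (0.720 to 0.836). The actins therefore differed by about the same factor. The number of Actg1 UMIs per Actb UMI, which does not depend on scaling, was 0.169 after photoconversion and 0.171 in the control. These genes share transcript sequence, as given below, so their counts may not be fully separate. The Actb ratio was 0.883 when cells were thinned and 0.973 when every cell weighed the same. The median cell had 2326 CPM of Actb after photoconversion and 2662 CPM in the control, and the 90th percentile was 9561 CPM after photoconversion and 9891 CPM in the control.

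The regulators of existing filaments also lay below 1. Cfl1, cofilin (ENSMUSG00000056201, chromosome 19, 5490455 to 5495201, plus strand), had 983 CPM after photoconversion and 1034 CPM in the control, a ratio of 0.95 (0.894 to 1.01), whose interval includes 1. Coro1a, the coronin of blood cells, which binds filaments and the Arp2/3 complex (ENSMUSG00000030707, chromosome 7, 126699773 to 126707787, minus strand), had 350 CPM after photoconversion and 427 CPM in the control, a ratio of 0.819 (0.741 to 0.905). Coro1a was lower by more than counting error, but did not pass the threshold.

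The 3 subunits of the Arp2/3 complex did not have 1 common ratio. Arpc2, one of the subunits that hold the complex on the mother filament (ENSMUSG00000006304, chromosome 1, 74236084 to 74268209, plus strand), had 424 CPM after photoconversion and 569 CPM in the control, a ratio of 0.745 (0.681 to 0.814). Arpc3 (ENSMUSG00000029465, chromosome 5, 122391878 to 122414184, plus strand) had 366 CPM after photoconversion and 413 CPM in the control, a ratio of 0.886 (0.802 to 0.978). Arpc1b, the form of the WD-repeat subunit found in blood cells (ENSMUSG00000029622, chromosome 5, 145114215 to 145130705, plus strand), had 616 CPM after photoconversion and 662 CPM in the control, a ratio of 0.930 (0.861 to 1.005). Arpc2 lay below both of the others, with 1.45 Arpc1b UMIs per Arpc2 UMI after photoconversion and 1.16 in the control. The other 6 genes of the complex gave 0 past the threshold, with 1042 CPM in all after photoconversion and 1059 CPM in the control.

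Part of the reads of some members could also come from near-identical copies. Of the stretches of 50 bases in the last 500 bases of the transcripts, 49.9% of those of Actg1, 39.3% of Tmsb10, 14.2% of Arpc1b, 12.8% of Actb and 3.70% of Cfl1 occur in another gene, mostly pseudogenes, and 0% of those of the other 5 members. Actb and Actg1 share some of these stretches with each other. Of the other genes that hold such stretches, 4 for Actb, 4 for Actg1, 1 for Tmsb10 and 0 for Cfl1 and Arpc1b were among the genes counted here. How the authors' counting treated such reads is not given in the sources used here. Levels of these 5 genes, Actg1 and Tmsb10 above all, are therefore uncertain, as is the number of Actg1 UMIs per Actb UMI. Tmsb4x, Pfn1, Coro1a, Arpc2 and Arpc3 are free of this limit in the window searched.

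Cells were next divided by 2 marker genes of microglial state. Cst7, cystatin F, is induced in disease-associated microglia around plaques, and P2ry12, a purinergic receptor, marks homeostatic microglia. Cells with more Cst7 than P2ry12 UMIs numbered 157 after photoconversion and 207 in the control, those with more P2ry12 numbered 133 after photoconversion and 290 in the control, and 27 photoconversion and 58 control cells had equal counts. The Cst7>P2ry12 cells were deeper, with median UMIs of 5852 after photoconversion and 4655 in the control, against 2739 and 2206.5 in P2ry12>Cst7 cells. Their median ribosomal share was higher, 25.3% after photoconversion and 25% in the control, against 13.1% and 9.03% in P2ry12>Cst7 cells. Their median Malat1 share was lower, 0.46% after photoconversion and 0.29% in the control, against 2.74% and 2.53% in P2ry12>Cst7 cells.

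The summed ratio of photoconversion over control was below 1 in both states, 0.914 (0.901 to 0.928) in Cst7>P2ry12 and 0.967 (0.945 to 0.990) in P2ry12>Cst7 cells. In Cst7>P2ry12 cells 3 of the 10 genes were past the threshold, all lower after photoconversion, where 20.4% of all genes were past it, 8.22% higher and 12.2% lower: Actb at a ratio of 0.781 (0.750 to 0.813), Actg1 at 0.799 (0.728 to 0.877) and Arpc2 at 0.713 (0.640 to 0.794). In P2ry12>Cst7 cells 2 were past it, both lower, where 24.9% of all genes were past it, 7.84% higher and 17.1% lower: Actg1 at 0.764 (0.662 to 0.879) and Arpc3 at 0.652 (0.524 to 0.808). There Actb stood at 0.900 (0.855 to 0.948), closer to 1 than in the Cst7>P2ry12 cells. The ratio of Tmsb4x was 0.955 (0.937 to 0.973) in Cst7>P2ry12 and 1.03 (0.998 to 1.06) in P2ry12>Cst7 cells. Actg1 was thus the gene past the threshold in both states.

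**Figure D2:**
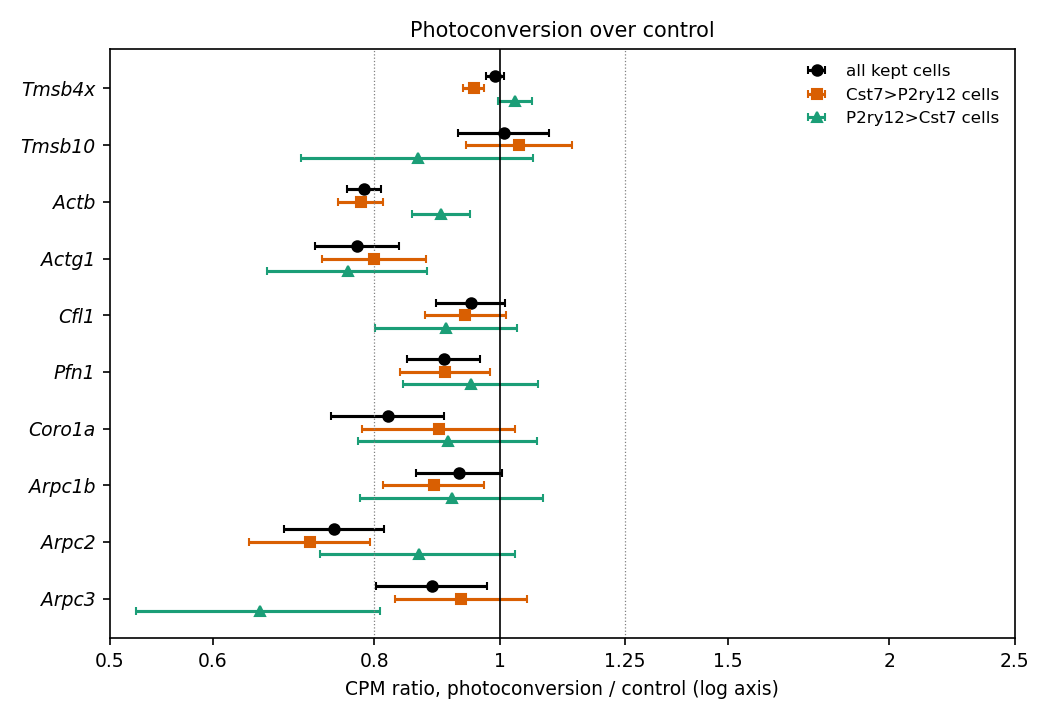
Ratio of CPM in the photoconversion library over the control library for the 10 actin genes, on a log axis, in all kept cells (black), Cst7>P2ry12 cells (orange) and P2ry12>Cst7 cells (green). Bars are exact 95% intervals of the counting error, and dotted lines mark the threshold. Tmsb4x and Tmsb10 lie on both sides of 1, and the other genes lie left of it in all 3 groups of cells.

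Between the states, the summed level of the 10 genes, which weighs deep cells most, differed little. The ratio of Cst7>P2ry12 over P2ry12>Cst7 cells was 1.02 (1.0 to 1.05) after photoconversion and 1.08 (1.06 to 1.10) in the control. The median cell share differed more, at 2.34% in Cst7>P2ry12 and 1.89% in P2ry12>Cst7 cells after photoconversion. In the control these shares were 2.51% and 1.71%. Thinned cells summed to 25472 against 19681 CPM after photoconversion and 27683 against 20289 CPM in the control. In the 2 middle Malat1 bins described below the summed ratio was 0.912 after photoconversion and 0.908 in the control. Most of the summed UMIs were Tmsb4x, 20469 of 31034 in Cst7>P2ry12 and 6635 of 10833 in P2ry12>Cst7 cells after photoconversion. In the control they were 24008 of 38012 and 11596 of 20125. The sum thus says little of the other genes. Single genes moved in opposite directions beneath it. After photoconversion 4 were past the threshold higher and 2 lower, where 63.9% of the 1871 genes tested were past it, 29.7% higher and 34.3% lower. In the control 3 were higher and 2 lower, where 65% of 2479 genes were past it, 23% higher and 42% lower. The median log2 ratio of the 10 genes was 0.08 after photoconversion, beside -0.04 over all genes tested, and 0.20 in the control, beside -0.19. The 6 of 10 and 5 of 10 past the threshold lie near or below the shares of all genes, so the values of single genes are given as a description. TMM scaling would raise all log2 ratios between the states by 0.35 after photoconversion and 0.36 in the control. It would then put 7 genes higher and 1 lower after photoconversion and 6 higher and 1 lower in the control. This shift moves all genes, and their share past the threshold after it is not given, so these counts are not read further.

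Tmsb10 had the highest ratio of the 10 in the Cst7>P2ry12 cells of both libraries. After photoconversion it had 648 CPM in Cst7>P2ry12 and 302 CPM in P2ry12>Cst7 cells, a ratio of 2.15 (1.80 to 2.59). In the control it had 626 CPM in Cst7>P2ry12 and 349 CPM in P2ry12>Cst7 cells, a ratio of 1.80 (1.57 to 2.06). The ratio exceeded 1 under 14 of 14 other settings in each library. Its paralog Tmsb4x had a ratio of 1.10 (1.07 to 1.13) after photoconversion and 1.19 (1.16 to 1.21) in the control, so the thymosins did not shift by the same factor.

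Cfl1, Arpc1b and, after photoconversion, Arpc3 were the other genes past the threshold on the higher side in Cst7>P2ry12 cells. Cfl1 had 1050 CPM in Cst7>P2ry12 and 800 CPM in P2ry12>Cst7 cells after photoconversion, a ratio of 1.31 (1.17 to 1.48), while control cells had 1116 CPM in Cst7>P2ry12 and 880 CPM in P2ry12>Cst7 cells, a ratio of 1.27 (1.16 to 1.39). After photoconversion Arpc1b had 659 CPM in Cst7>P2ry12 and 488 CPM in P2ry12>Cst7 cells, a ratio of 1.35 (1.17 to 1.57). In the control it had 741 CPM in Cst7>P2ry12 and 531 CPM in P2ry12>Cst7 cells, a ratio of 1.40 (1.249 to 1.56). The ratios of these 2 genes were above 1 in 14 of 14 other settings in each library. After photoconversion Arpc3 had 403 CPM in Cst7>P2ry12 and 252 CPM in P2ry12>Cst7 cells, a ratio of 1.60 (1.31 to 1.97), but in the control its ratio was 1.12 (0.974 to 1.28), an interval that includes 1. Arpc2 had a ratio of 1.02 after photoconversion and 1.23 (1.10 to 1.39) in the control. Pfn1 stood at 0.922 after photoconversion and 0.965 in the control, and Actg1 at 0.998 after photoconversion and 0.953 in the control. Neither gene was past the threshold in either library.

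Coro1a and Actb were lower in Cst7>P2ry12 cells. Coro1a had 295 CPM in Cst7>P2ry12 and 511 CPM in P2ry12>Cst7 cells after photoconversion, a ratio of 0.578 (0.491 to 0.682), while in the control it had 329 CPM in Cst7>P2ry12 and 561 CPM in P2ry12>Cst7 cells, a ratio of 0.587 (0.516 to 0.668). It stayed below 1 under 14 of 14 other settings in both libraries. After photoconversion Actb had 3148 CPM in Cst7>P2ry12 and 4699 CPM in P2ry12>Cst7 cells, a ratio of 0.670 (0.636 to 0.706). In the control it had 4033 CPM in Cst7>P2ry12 and 5219 CPM in P2ry12>Cst7 cells, a ratio of 0.773 (0.743 to 0.804). Its direction held under 14 of 14 settings after photoconversion, but in the control 2 of 14 gave a ratio just above 1, 1.01 under median-of-ratios scaling and 1.02 when cells were thinned and then divided by state.

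**Figure D3:**
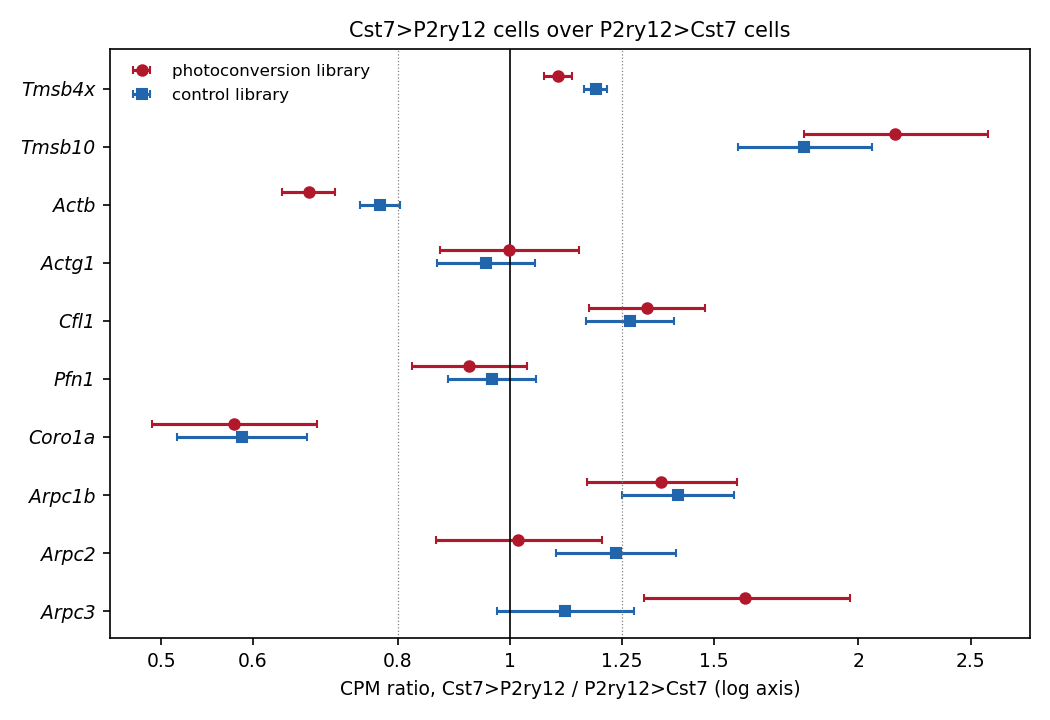
Ratio of CPM in Cst7>P2ry12 over P2ry12>Cst7 cells for the 10 actin genes, on a log axis, in the photoconversion library (red circles) and the control library (blue squares). Bars are exact 95% intervals of the counting error, and dotted lines mark the threshold. Tmsb10 lies farthest to the right at 2.15 and 1.80, and Coro1a farthest to the left at 0.578 and 0.587.

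Ratios of UMIs between members in the same cells do not change with the scaling, and they differed between the states in the same direction in both libraries. They restate the levels of single genes given above and were chosen after those were seen. There were 4.96 Tmsb4x UMIs per Actb UMI (4.8 to 5.13) in Cst7>P2ry12 cells after photoconversion and 3.02 (2.88 to 3.17) in P2ry12>Cst7 cells, against 4.06 (3.94 to 4.18) in Cst7>P2ry12 and 2.64 (2.55 to 2.74) in P2ry12>Cst7 cells of the control. Tmsb10 UMIs per Coro1a UMI were 2.19 (1.94 to 2.48) in Cst7>P2ry12 and 0.590 (0.476 to 0.729) in P2ry12>Cst7 cells after photoconversion, against 1.90 (1.70 to 2.13) in Cst7>P2ry12 and 0.622 (0.536 to 0.721) in P2ry12>Cst7 cells of the control. Within a library the states differed beyond counting error in both pairs. Cfl1 UMIs per Actb UMI were 0.333 in Cst7>P2ry12 and 0.170 in P2ry12>Cst7 cells after photoconversion, against 0.277 in Cst7>P2ry12 and 0.169 in P2ry12>Cst7 cells of the control, so the libraries were level in P2ry12>Cst7 cells and apart in Cst7>P2ry12 cells.

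Genes of other cell types moved with state too. At least 3 UMIs of the oligodendrocyte markers, of which 4 of 5 were detected and Mog was at 0, were found in 12.1% of Cst7>P2ry12 cells after photoconversion and 13.5% in the control, against 0.752% and 0.690% of P2ry12>Cst7 cells. This count of cells is not scaled for depth, and Cst7>P2ry12 cells were deeper. The summed oligodendrocyte markers differed less, at 111 CPM after photoconversion and 157 CPM in the control in Cst7>P2ry12 cells, against 83.4 CPM and 101 CPM in P2ry12>Cst7 cells. Endothelial and mural markers, all 7 of them detected in each library, moved in opposite directions in the libraries. After photoconversion they summed to 225 CPM in Cst7>P2ry12 and 12.8 CPM in P2ry12>Cst7 cells, and in the control to 66.8 CPM in Cst7>P2ry12 and 239 CPM in P2ry12>Cst7 cells. At least 3 of their UMIs were found in 5 Cst7>P2ry12 and 0 P2ry12>Cst7 cells after photoconversion, and in 4 Cst7>P2ry12 and 2 P2ry12>Cst7 cells of the control. Border macrophage markers summed to 11.5 CPM in Cst7>P2ry12 and 2.14 CPM in P2ry12>Cst7 cells after photoconversion, from 15 UMIs and 1 UMI, and to 47.7 CPM in Cst7>P2ry12 and 10.7 CPM in P2ry12>Cst7 cells of the control, with Lyve1 at 0 in both libraries. Monocyte markers went the other way, at 4.58 CPM in Cst7>P2ry12 and 44.9 CPM in P2ry12>Cst7 cells after photoconversion, from 6 and 21 UMIs. In the control they stood at 3.41 CPM and 52.4 CPM, from 5 and 44 UMIs. Astrocyte markers stood at 147 CPM in Cst7>P2ry12 and 197 CPM in P2ry12>Cst7 cells after photoconversion, and at 163 CPM and 158 CPM in the control. The part of such RNA in the state ratios of single genes was not tested, but in the 267 photoconversion and 487 control cells with microglial and no other markers the summed ratio was 1.08 after photoconversion and 1.14 in the control.

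The 10 genes together were highest in cells with the lowest Malat1 share of UMIs and lowest in cells with the highest share. Cells of both libraries together were divided into 4 bins of equal size at Malat1 shares of 0.032%, 1.03% and 3.14%, which gave 82, 87, 82 and 66 photoconversion cells and 136, 131, 136 and 152 control cells from the lowest to the highest bin. The median cell gave 3.25%, 2.38%, 2.08% and 0.96% of its UMIs to the 10 genes after photoconversion and 3.19%, 2.32%, 2.36% and 0.94% in the control. Medians fell at each step after photoconversion but not between the middle bins of the control. Malat1 itself was nearly absent from the lowest bin, at 7 UMIs after photoconversion and 10 in the control. The lowest bin exceeded the highest in the summed level, by 1.77-fold after photoconversion (1.69 to 1.86) and 2.32-fold in the control (2.23 to 2.41).

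**Figure D4:**
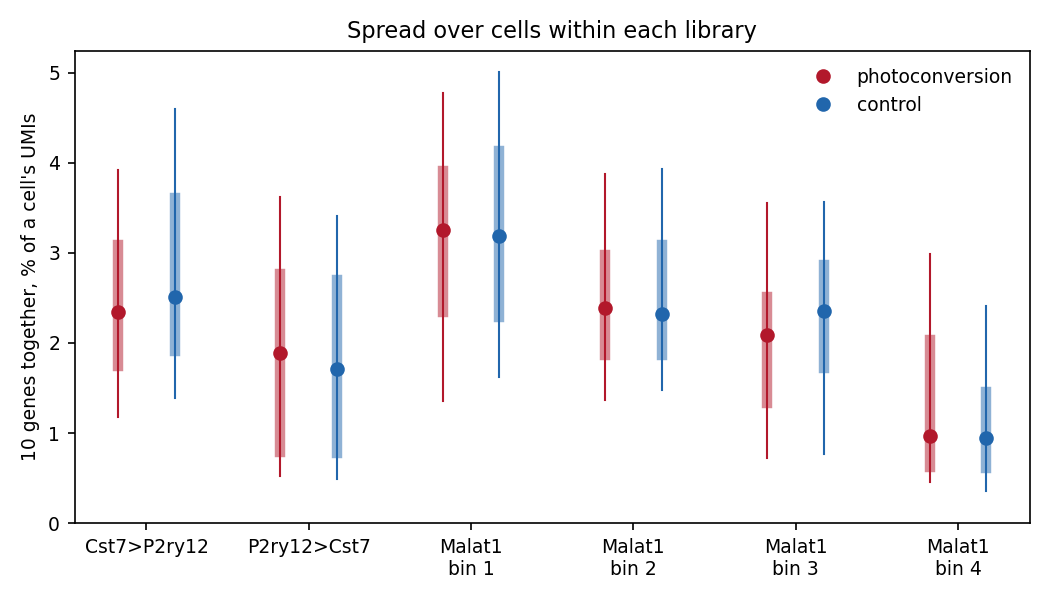
Share of a cell's UMIs that came from the 10 actin genes together, in percent, by state and by bin of the Malat1 share, in the photoconversion library (red) and the control library (blue). Points are medians over cells, thick bars run from the 25th to the 75th and thin lines from the 10th to the 90th percentile, so they show the spread of cells and not of replicates. The lowest medians, 0.96% after photoconversion and 0.94% in the control, are those of the highest Malat1 bin.

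Depth and ribosomal share changed along the same bins. Median UMIs were 1652.5, 11676, 4486.5 and 2061 after photoconversion and 1424, 8560, 4355.5 and 1276 in the control, and median ribosomal shares were 32.1%, 24.7%, 17.0% and 5.36% after photoconversion and 31.5%, 22.2%, 15.5% and 4.83% in the control. The lowest and the highest bin were thus both shallow, and the ribosomal share was lower at each step, from bin 1 to 4. With cells thinned to 1000 UMIs the summed ratio of the lowest over the highest bin was 2.08 after photoconversion and 2.61 in the control. In control cells of 2000 to 10000 UMIs it was 1.68, a window chosen after seeing the data. The part of RNA content and of ribosomal share in the difference between bins was not tested. Markers of other cell types varied along the bins as well. Endothelial and mural markers summed to 542, 24.2, 517 and 13.7 CPM from the lowest to the highest bin after photoconversion and 70.8, 220, 540 and 37.4 CPM in the control. Oligodendrocyte markers summed to 240, 89.9, 82.7 and 144 CPM after photoconversion and 243, 130, 124 and 83.1 CPM in the control. In cells with microglial and no other markers the summed ratio of the lowest over the highest bin was 1.72 after photoconversion and 2.33 in the control.

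Against the highest bin, 8 genes were past the threshold higher and 1 lower in the lowest bin after photoconversion, where 88.4% of the 389 genes with enough UMIs were past it, 57.3% higher and 31.1% lower. In the control 9 were higher and 1 lower, where 86.5% of 624 genes were past it, 50.8% higher and 35.7% lower. The median log2 ratio of the 10 genes was 0.95 after photoconversion, beside 0.78 over all genes tested, and 1.08 in the control, beside 0.36. Moving past the threshold is therefore common among all genes here, and TMM scaling would add 0.61 to every log2 ratio after photoconversion and 0.75 in the control. The differences between members are free of that shift.

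The thymosins were lower at each step towards high Malat1. In the control the intervals of bins 2 and 3 overlap for Tmsb4x, and those of bins 1 and 2 for Tmsb10. From the lowest to the highest bin Tmsb4x had 20204, 16127, 13272 and 9784 CPM after photoconversion and 22158, 15491, 14993 and 7620 CPM in the control. Tmsb10 had 901, 616, 464 and 213 CPM after photoconversion and 773, 680, 421 and 154 CPM in the control, a ratio of the lowest over the highest bin of 4.24 (2.89 to 6.42) after photoconversion and 5.03 (3.55 to 7.31) in the control. The lowest bin of Tmsb10 thus exceeded the highest by the largest ratio among the 10 genes in both libraries. Cfl1 was lower at each step too, with ratios of the lowest over the highest bin of 1.81 after photoconversion and 2.77 in the control, as was Arpc1b, with ratios of 2.40 and 2.04, although some of their steps lie within counting error. Arpc3 had a ratio of 3.59 (2.26 to 5.96) after photoconversion, from 113 and 22 UMIs, and 2.06 (1.53 to 2.82) in the control.

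Actb and Coro1a had the smallest ratios of the lowest over the highest bin among the 10 genes in both libraries. Actb had 3872, 3443, 3597 and 4018 CPM from bin 1 to 4 after photoconversion, with a lowest over highest ratio of 0.964 (0.865 to 1.07), and 5125, 4085, 5392 and 3995 CPM in the control, a ratio of 1.28 (1.18 to 1.39). Coro1a had 220, 329, 405 and 494 CPM after photoconversion, with a lowest over highest ratio of 0.447 (0.302 to 0.655), and 342, 375, 557 and 465 CPM in the control, a ratio of 0.735 (0.560 to 0.964). The control ratio of Coro1a was 1.24 under TMM and under median-of-ratios scaling and 1.02 when scaled without mitochondrial and ribosomal genes, while that after photoconversion remained below 1 under 13 of 13 settings. The ratio of Actb was above 1 under 8 of 13 other settings after photoconversion and 12 of 13 in the control, where it ranged from 0.815 to 2.16. Actg1, Pfn1 and Arpc2 lay above 1, with ratios of 1.71, 1.76 and 2.20 after photoconversion and 2.16, 2.51 and 1.88 in the control.

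**Figure D5:**
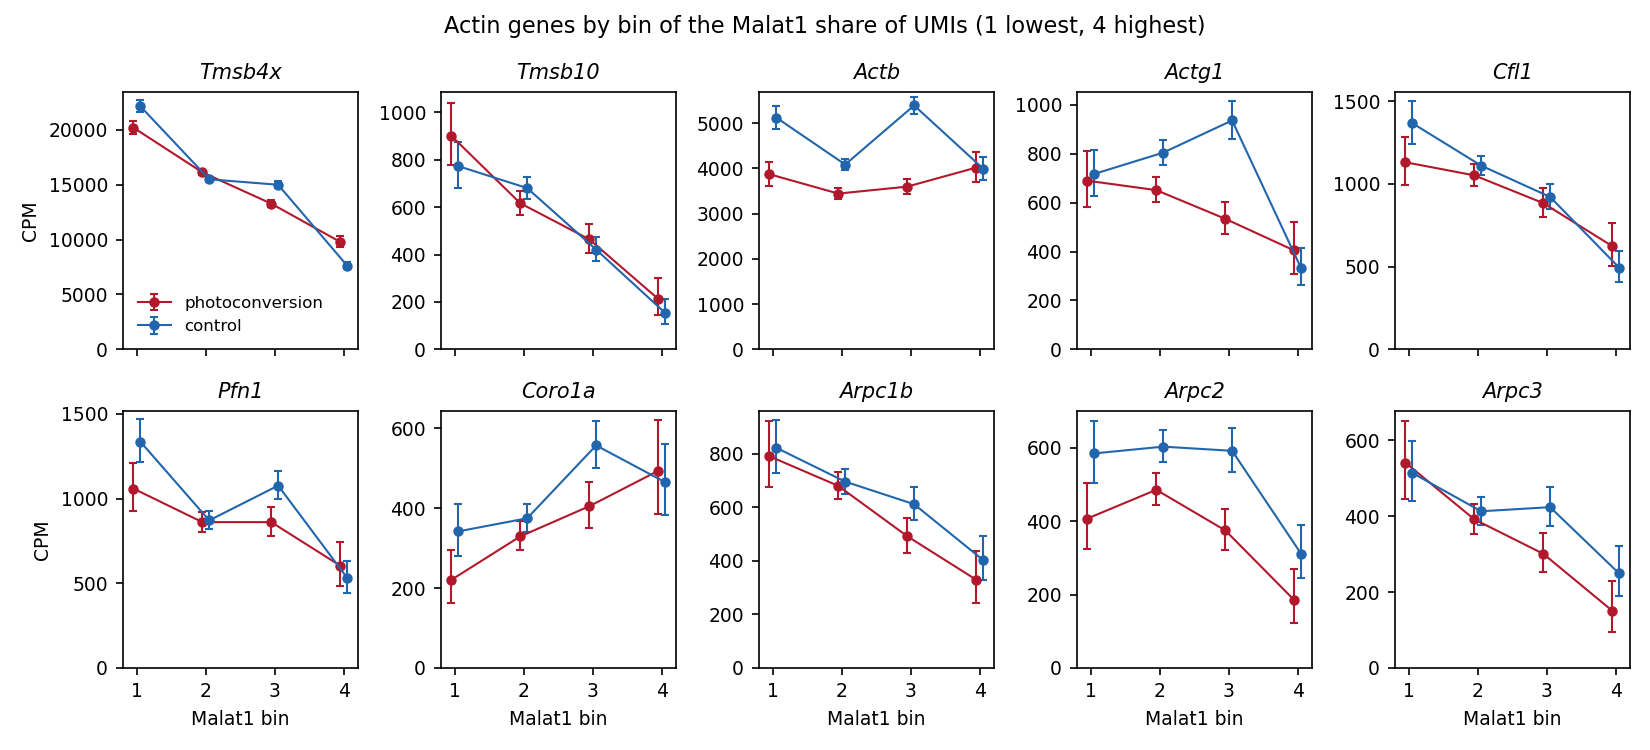
Level of each of the 10 actin genes in CPM, on linear axes from 0, by bin of the Malat1 share of UMIs from 1 (lowest) to 4 (highest), in the photoconversion library (red) and the control library (blue). Points are summed levels and bars exact 95% Poisson intervals of the counting error. Tmsb4x, Tmsb10, Cfl1 and Arpc1b are lower at each step in both libraries, while Coro1a is higher at each step after photoconversion and Actb stays between 3443 and 4018 CPM there.

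Without any scaling, ratios of UMIs between members restate the levels above, and the pairs were chosen after those were seen. Tmsb4x UMIs per Actb UMI were 5.22, 4.68, 3.69 and 2.44 from the lowest to the highest Malat1 bin after photoconversion and 4.32, 3.79, 2.78 and 1.91 in the control. Tmsb10 UMIs per Coro1a UMI were 4.09, 1.87, 1.15 and 0.431 after photoconversion and 2.26, 1.82, 0.755 and 0.330 in the control. Both ratios were lower at each step in both libraries, and Tmsb4x per Actb was higher after photoconversion in every bin.

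The ratio between the libraries varied along the Malat1 bins, a difference that was not tested. The summed ratio of photoconversion over control was 0.884 (0.856 to 0.912), 0.980 (0.964 to 0.997), 0.817 (0.797 to 0.838) and 1.15 (1.10 to 1.22) from the lowest to the highest Malat1 bin. Actb had ratios of 0.755, 0.843, 0.667 and 1.01 and Arpc2 ratios of 0.696, 0.805, 0.633 and 0.594. Of these 3 measures only Arpc2 was lower after photoconversion in all 4 bins, in the highest from 27 UMIs after photoconversion and 75 in the control. Among the other members Arpc1b was also below 1 in all 4 bins, at 0.961, 0.977, 0.804 and 0.817. Its interval lay below 1 only in bin 3 (0.681 to 0.949).

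State and Malat1 share overlap, and the state ratios of some genes depended on the bin. Coro1a was lower in Cst7>P2ry12 than in P2ry12>Cst7 cells in all 4 bins after photoconversion, with ratios of 0.464 (0.213 to 1.15), 0.656 (0.488 to 0.896), 0.544 (0.402 to 0.732) and 0.525 (0.139 to 1.41), where the first and last intervals include 1 and rest on 8 UMIs in P2ry12>Cst7 and 4 UMIs in Cst7>P2ry12 cells. In the control its ratios were 2.89 (1.20 to 9.12), 0.486 (0.383 to 0.621), 0.656 (0.494 to 0.861) and 0.838 (0.351 to 1.72). The first of these lies above 1, from 94 UMIs in Cst7>P2ry12 and 5 UMIs in P2ry12>Cst7 cells, and the last rests on 8 UMIs in Cst7>P2ry12 cells. Tmsb10 had ratios of 4.62, 1.39, 2.26 and 0.570 after photoconversion and 2.27, 2.07, 0.732 and 1.03 in the control, with 3 or fewer UMIs on 1 side in the first and last bin after photoconversion and in the last of the control. The ratio of Tmsb10 was thus below 1 in bin 3 of the control, from 54 UMIs in Cst7>P2ry12 and 206 in P2ry12>Cst7 cells. Within the middle bins together the 10 genes summed to a state ratio of 0.912 after photoconversion and 0.908 in the control, both below 1.

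Across single cells the share of the 10 genes, most of it Tmsb4x, ran alongside that of ribosomal protein genes. In cells thinned to 1000 UMIs, 272 after photoconversion and 439 in the control, the 10 genes most like the summed share of the members, of 3998 ranked by Spearman's correlation, were all ribosomal: Rps29 at 0.58 after photoconversion and 0.55 in the control, Rpl41 at 0.58 and 0.52, and then Rpl39, Rpl35a, Rplp1, Rps28, Rps24, Rpl10, Rps23 and Rpl23a. At the other end, picked after the values were seen, stood among others C1qa at -0.58 after photoconversion and -0.60 in the control, Ctss at -0.60 and -0.53, Lgmn at -0.54 and -0.50 and C1qc at -0.49 and -0.53, genes of lysosomal enzymes and of complement C1q. These points share a library, and shares of 1 total are tied to each other, so the values describe these cells and carry no p-value.

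Among the members, Tmsb4x followed the summed share of the other 9 most closely, at a Spearman correlation of 0.48 after photoconversion and 0.46 in the control. Coro1a was at 0.02 after photoconversion and 0.11 in the control, the lowest of the 10 genes, at means of 0.320 and 0.437 UMIs per thinned cell. With Malat1 the correlation was -0.51 after photoconversion and -0.59 in the control for Tmsb4x, and -0.04 and -0.02 for Actb. The closest pair after photoconversion was Tmsb4x with Cfl1, at 0.32 there and 0.34 in the control, and in the control Tmsb4x with Tmsb10, at 0.27 after photoconversion and 0.39 in the control. Counts of most members were below 1 UMI per thinned cell, so the low values of Coro1a and of the other pairs, with medians over all 45 of 0.09 after photoconversion and 0.11 in the control, are not read further.

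The other genes of the actin system were followed in a list of 93, all of them found. Of 73 with at least 100 UMIs, 4 were past the threshold higher and 8 lower after photoconversion, with a median log2 ratio of -0.09, beside the 7.31% higher and 16.5% lower of all genes. Gmfb, which removes Arp2/3 branches, was the highest at 1.5 (1.06 to 2.12), from 74 UMIs after photoconversion and 66 in the control. Cap1, which recharges actin monomers, and Actn4, a crosslinker, both stood at 1.33, with intervals of 1.02 to 1.74 and 0.951 to 1.87. The lowest were the formin Fmnl1 at 0.616 (0.459 to 0.819), the cofilin cofactor Wdr1 at 0.682 (0.538 to 0.861) and the integrin activator Fermt3 at 0.712 (0.573 to 0.882).

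Between the states, more of these genes were lower than higher in Cst7>P2ry12 cells, 26 lower and 9 higher of 58 after photoconversion and 31 lower and 7 higher of 61 in the control, with median log2 ratios of -0.23 after photoconversion and -0.34 in the control. The shares of all genes were 34.3% lower and 29.7% higher after photoconversion and 42% lower and 23% higher in the control, and the list was chosen with results of these data known. Of the membrane linkers 0 were higher and 4 lower of 7 in each library, and of the WASP and WAVE genes, which switch on the Arp2/3 complex, 0 were higher and 4 lower of 6 in each. Myosins and tropomyosins had 2 higher and 1 lower of 6 after photoconversion and 2 higher and 0 lower of 6 in the control. These directions depend on the scaling, since the TMM shift of 0.35 after photoconversion and 0.36 in the control would put the median of the list above 0 in both libraries.

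The named genes of this list lay farther from 1 than the members did. They were chosen as its 3 highest and 3 lowest ratios between states, so this carries no comparison with the members. Capg, which caps filament ends, had 313 CPM in Cst7>P2ry12 and 94.1 CPM in P2ry12>Cst7 cells after photoconversion, a ratio of 3.33 (2.43 to 4.65). In the control it had 316 CPM in Cst7>P2ry12 and 83.3 CPM in P2ry12>Cst7 cells, a ratio of 3.79 (2.94 to 4.94). The class I myosin Myo1e had ratios of 6.16 (2.30 to 23.2) after photoconversion, from 69 UMIs in Cst7>P2ry12 and 4 in P2ry12>Cst7 cells, and 3.27 (1.84 to 6.26) in the control, from 80 UMIs in Cst7>P2ry12 and 14 in P2ry12>Cst7 cells. Myo1e had more than 100 UMIs over both libraries together but fewer in the cells of both states of either library, so it is not among the 58 and 61 genes counted between the states. The GTPase Rhoc had ratios of 2.70 (1.64 to 4.69) after photoconversion and 3.07 (2.11 to 4.60) in the control. These 3 genes were higher in Cst7>P2ry12 cells of both libraries. In the other direction, Arhgap45, a gene of a GTPase-activating protein, had 173 CPM in Cst7>P2ry12 and 571 CPM in P2ry12>Cst7 cells after photoconversion, a ratio of 0.302 (0.252 to 0.362), and a ratio of 0.307 (0.263 to 0.357) in the control. Ssh2, a phosphatase that activates cofilin, had ratios of 0.345 (0.255 to 0.467) after photoconversion and 0.357 (0.277 to 0.458) in the control. Elmo1, an adaptor of Rac activation in engulfment, had ratios of 0.367 (0.259 to 0.521) after photoconversion and 0.213 (0.153 to 0.292) in the control. All 6 genes lay on the same side of 1 in both libraries, which the choice of these genes required.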

How the data were processed

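Cortical cells of 1 photoconversion and 1 control library were measured with a droplet-based (10x Chromium) assay. The deposited values are unnormalized UMI counts for each gene and barcode, from Cell Ranger 3.0.2 run by the authors per the file headers, with bcl2fastq and the mm10 build per the submitters' processing notes. The transcript annotation and the treatment of reads with several matches are not given in the sources used here. A further deposited table of all cells was not used here.

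The members and lists were chosen with earlier results of these data known. UMI counts of kept cells were summed and scaled to the total of the group of cells to give CPM. Sums carry exact Poisson and ratios exact conditional binomial intervals (scipy 1.17.1), at 95%, and a gene entered a count or median of a comparison with at least 100 UMIs in its 2 groups together. Cells were thinned to 1000 UMIs without replacement with seed 1. TMM factors came from edgeR 4.0.16, applied to the summed counts, with no count test since there was 1 library per group. No doublet caller was run. Of the other actin genes with at least 100 UMIs over both libraries the text names the 3 highest and 3 lowest ratios between libraries, and the 3 highest and 3 lowest between states by the smaller of the absolute log2 ratios of both libraries, among genes with 1 direction. Gene positions and transcripts are from GENCODE (mm10) and promoters from RefSeq (GRCm38.p6). The ratio step was tested on simulated data. Alternatives covered cell filters, thinning, cell weights, scaling, richest cells, state and Malat1 definitions, and the fold. A few genes and lists are not reported here.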

Additional observations from a re-analysis of the deposited data

Results flagged for a closer look

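Barcodes with 200 or more genes and over 10% mitochondrial UMIs, which no comparison used, numbered 75 after photoconversion and 105 in the control. There the 10 actin genes stood at 12546 CPM after photoconversion (11856 to 13265) and 11163 CPM in the control (10528 to 11826), so the level was above the control's in these unused barcodes, while in the kept cells it was 23706 CPM and 25440 CPM. Both intervals lie far below the kept cells of their own library.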

How the results depend on the processing

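No paired analysis was possible because there was 1 library per group. Leaving out 1 library was not possible for the same reason, and the counting intervals do not cover differences between mice. Depth limits the outer Malat1 bins, where some sums are below 100 UMIs.

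The summed ratio of photoconversion over control, 0.932, was 0.973 when cells were thinned and also when state was then called on thinned cells, 1.02 with cells weighed equally, 0.955 in cells with microglial markers only, 0.954 when scaled without mitochondrial and ribosomal genes, 0.972 under TMM and 0.969 under median-of-ratios scaling. The members past the fold, 3, were 4 when cells were thinned, without Actb and with Coro1a and Arpc3 added, 1 with cells weighed equally, 1 under TMM, 1 under median-of-ratios scaling and 0 at a fold of 1.5. Shares of all genes past the fold are not given for these other settings, so the counts have no background beside them. Actb, Actg1, Coro1a, Arpc2 and Arpc3 were below 1 in 12 of 12 settings.

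The summed ratio between states after photoconversion, 1.02, was 0.944 at 5% mitochondrial UMIs, 1.29 when thinned, 1.31 with equal weights, 1.08 in cells with microglial markers only, 1.13 without mitochondrial and ribosomal genes, 1.30 under TMM and median-of-ratios scaling, 1.10 without the 10 richest cells, 0.912 in the 2 middle Malat1 bins and 1.30 with states called on thinned cells. In the control, 1.08 became 1.03, 1.36, 1.5, 1.14, 1.21, 1.39, 1.42, 1.11, 0.908 and 1.43 under these settings with TMM before median-of-ratios, 1.06 when scaled without Malat1, 1.11 with a state difference of at least 2 UMIs and 0.962 in cells of 2000 to 10000 UMIs. Members past the fold were 3 after photoconversion and 2 in the control at a fold of 1.5. In the control they were 8 with equal weights and under median-of-ratios scaling. No share of all genes is given for these settings either. Actb in the control turned to 1.01 under median-of-ratios scaling and 1.02 with states called on thinned cells.

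The summed ratio of the lowest over the highest Malat1 bin after photoconversion, 1.77, was 1.54 at 5% mitochondrial UMIs, 2.08 when thinned, 2.33 with equal weights, 1.69 without Malat1, 2.45 without mitochondrial and ribosomal genes, 2.71 under TMM, 2.54 under median-of-ratios scaling, 2.70 without the 10 richest cells, 2.16 with fixed Malat1 limits of 1% and 4%, and 2.18 with bins called on thinned cells. In the control, 2.32 became 2.06, 2.61, 2.79, 2.19, 3.20, 3.91, 3.91, 2.78, 2.14 and 2.53 in this order, and 1.68 in cells of 2000 to 10000 UMIs, where Actb turned to 0.815. Coro1a in the control turned to 1.02 without mitochondrial and ribosomal genes and to 1.24 under TMM and under median-of-ratios scaling. The cause of these shifts was not tested. The depth window and the calls on thinned cells were chosen after seeing the data.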
